A study of Mus musculus with 6 samples.

Results

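The 42 genes described here encode enzymes with which the liver breaks down amino acids. They were chosen by symbol from knowledge of these routes, with earlier results of these data known. A feature counted as a member where the array annotation gave it 1 of those symbols. Of the 42 genes, 38 were measured on the oligonucleotide array, among 16871 genes, and 22 on the cDNA array, among 5011 genes. Both array types measured 21 members, and 39 were measured on at least 1. Afmid, Sds and Sdsl had no feature on either, so the serine dehydratase Sds and its relative Sdsl could not be compared. The study is a mouse model of chronic hyperlipidemia. Female C57BL/6 mice, 7 weeks old at the start and fed a chow with 4.4% fat, were injected into the abdomen every 3 days until day 96. The treated group of 12 mice received 0.5 g/kg of poloxamer P-407, a block copolymer known to raise plasma lipids, and the control group of 4 mice received saline. The livers of the treated mice formed 3 RNA pools and those of the control mice a single pool, so spread between individual mice was not measured. Each array held a treated pool labelled with Cy5 beside the control pool labelled with Cy3, without dye swap. A negative log2 ratio means less RNA in the treated livers.

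Amino acids that are not used for protein are broken down mainly in hepatocytes. Transaminases and dehydratases remove the nitrogen, which passes to the urea cycle, and the carbon skeletons enter glucose synthesis, ketone body formation or the citric acid cycle. Many of these enzymes are known to rise with glucocorticoids, glucagon, fasting and protein intake. The methionine route also makes S-adenosylmethionine, the methyl donor of the cell.

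Most measured enzymes of amino acid breakdown fell in the livers of treated mice. On the oligonucleotide array 27 of 38 members were lower, 1 was higher and 10 did not pass the test (limma, mean of 3 pools against 0, Benjamini-Hochberg adjusted p under 0.05 over all 16871 genes). Of all genes on that array 21.4% were lower and 22.0% higher by the same rule. The median log2 ratio of the members was -0.27, against 0.00 for all genes. In pools 1, 2 and 3 the members' median was -0.32, -0.29 and -0.18. Below 0 in every pool lay 31 members, or 81.6%, against 34.1% of all genes, and above 0 in every pool lay 2 members, or 5.26%, against 35.1%. The leading decreases were in Tat, which starts tyrosine breakdown, Tdo2, which starts tryptophan breakdown, the mitochondrial alanine transaminase Gpt2, and Bhmt, Gnmt and Cth of the methionine route. These 6 were lower by 1.5-fold or more, as were 1.23% of all genes. The rest of the decreases were smaller, down to a log2 ratio of -0.20. Counted by mean ratio, 10 members lay among the lowest 5% of genes and 19 among the lowest 10%.

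**Figure D1:**
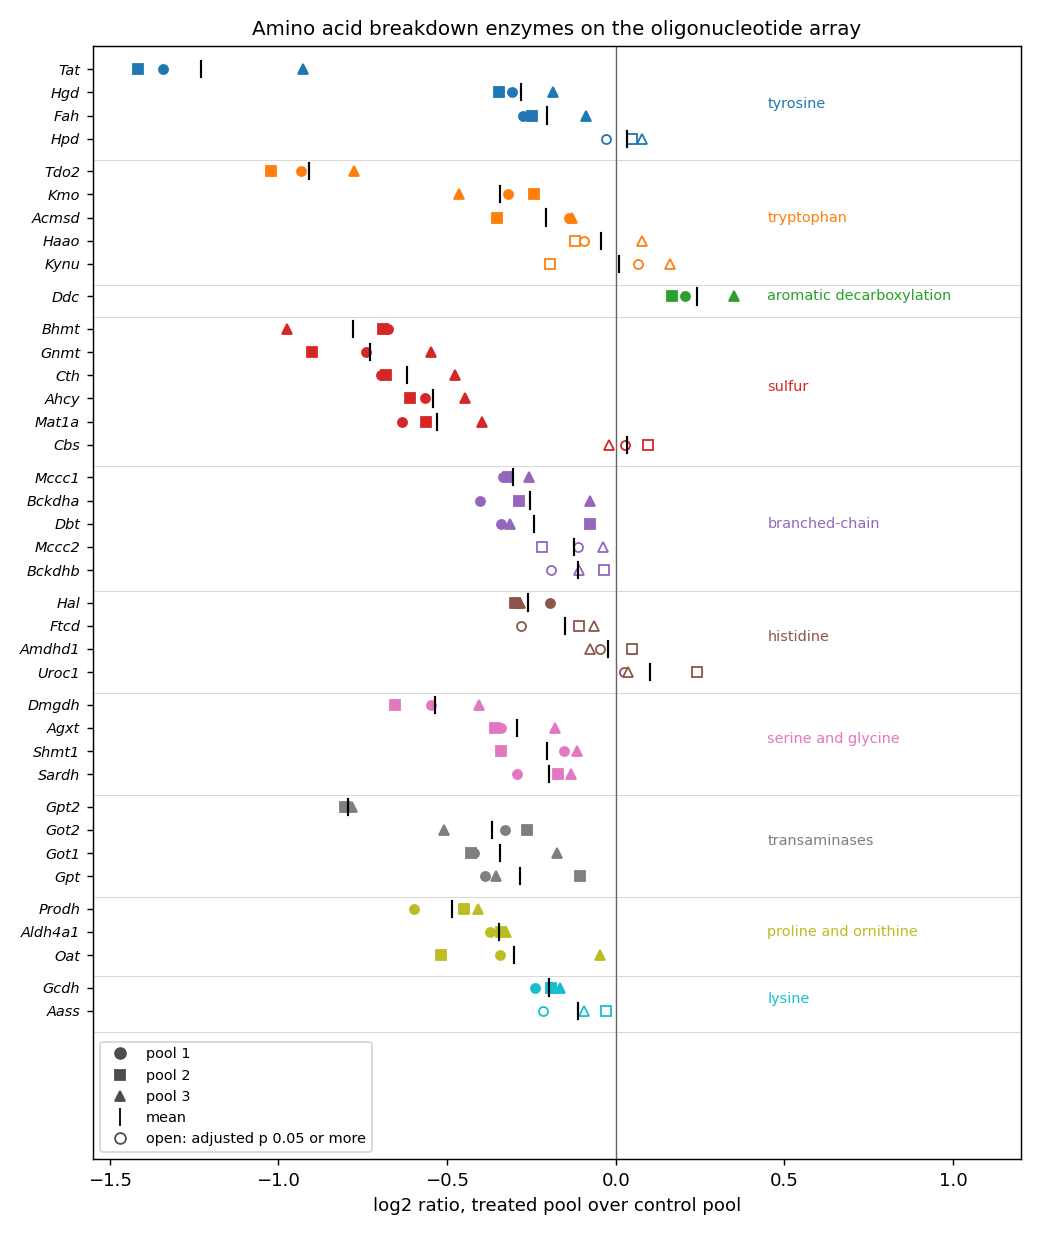
Log2 ratio of treated over control for the 38 members on the oligonucleotide array (horizontal axis), 1 row a gene, grouped and coloured by route. Markers are the 3 pools, the black bar is their mean, and open markers show genes that did not pass the test. Tat, with a mean of -1.23, lies farthest to the left, and Ddc, at 0.24, is the member that was higher.

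The liver contains several cell types, and fewer hepatocytes cannot be told apart from less RNA per hepatocyte in these bulk samples. Of 13 macrophage markers measured on the oligonucleotide array, 11 were higher and 2 lower, with mean log2 ratios from -1.24 to 4.63 and medians of 1.31, 0.91 and 1.02 in pools 1, 2 and 3. Of 10 hepatocyte markers, 2 were lower, none was higher and means ran from -0.55 to 0.05. Among all genes on that array 21.4% were lower and 22.0% higher. Alb, Ahsg, Fgb and Serpina1d, in that list of 10, shared 1 ratio on each array within 0.001 and so carry no value of their own, whereas no member shared its ratio with another gene. The 2 lower markers, named after their values were seen, were Cps1 at -0.74, -0.61 and -0.30 and Apoa1 at -0.27, -0.27 and -0.16 in pools 1, 2 and 3. In both, pool 3 lay nearest to 0, as it did in 21 of the 27 members that fell. The pool medians of all 10 markers were -0.05, -0.21 and -0.42, farthest from 0 in pool 3. These medians count the shared ratio, which lay at -0.05, -0.21 and -0.57, and so do not give the pool order of the list. Among the other markers, Cyp2e1 lay nearest to 0 in pool 3, at -0.31, -0.24 and -0.01. Apoa2 lay farthest from 0 there, at -0.05, -0.17 and -0.53, close to the shared ratio. Ttr and Trf lay between -0.02 and 0.10 in all pools. On the cDNA array the means of 8 hepatocyte markers ran from -1.21 to 0.35 and those of 10 macrophage markers from -0.25 to 2.35. The part of cell composition in the members' decreases was not tested. The files hold ratios without intensities, so the level of each enzyme and its signal over background are unknown.

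The 250 bases before the transcription start are printed for 5 of the 6 genes that fell by 1.5-fold or more on the oligonucleotide array. Whether these genes moved together was not tested, and the promoters are set side by side only for reading. They come from the RefSeq promoter table of assembly GRCm38.p6, which had an entry for 35 of the 42 members and none for Cth, Dbt, Gpt, Kynu, Mat1a, Sds and Sdsl. The windows are chr8:109990186-109990435 on the plus strand for Tat, chr3:81975729-81975978 on the minus strand for Tdo2, chr8:85492326-85492575 on the plus strand for Gpt2, chr13:93637759-93638008 on the minus strand for Bhmt and chr17:46729166-46729415 on the minus strand for Gnmt. Each is written 5′ to 3′ in the direction of its gene, with capitals for AGGTCA, the core motif of many nuclear receptors, or its reverse complement TGACCT.
Tat: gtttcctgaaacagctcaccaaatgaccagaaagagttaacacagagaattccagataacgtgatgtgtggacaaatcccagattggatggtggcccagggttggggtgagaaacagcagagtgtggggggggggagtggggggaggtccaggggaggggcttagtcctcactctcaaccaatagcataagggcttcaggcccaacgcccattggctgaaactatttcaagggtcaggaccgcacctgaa
Tdo2: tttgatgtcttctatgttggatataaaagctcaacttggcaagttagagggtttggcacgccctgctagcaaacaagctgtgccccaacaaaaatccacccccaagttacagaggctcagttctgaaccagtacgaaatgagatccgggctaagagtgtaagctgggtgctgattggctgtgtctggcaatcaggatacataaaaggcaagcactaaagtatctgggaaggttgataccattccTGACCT
Gpt2: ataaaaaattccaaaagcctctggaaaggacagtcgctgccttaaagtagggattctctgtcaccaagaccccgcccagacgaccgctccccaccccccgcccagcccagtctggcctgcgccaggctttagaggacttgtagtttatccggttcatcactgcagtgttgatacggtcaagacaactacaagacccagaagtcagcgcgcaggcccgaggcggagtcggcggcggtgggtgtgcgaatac
Bhmt: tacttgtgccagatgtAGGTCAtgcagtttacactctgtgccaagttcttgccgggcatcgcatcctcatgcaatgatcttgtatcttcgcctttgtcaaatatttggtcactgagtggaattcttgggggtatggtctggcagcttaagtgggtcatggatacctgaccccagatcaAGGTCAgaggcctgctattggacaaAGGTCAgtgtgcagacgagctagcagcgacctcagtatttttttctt
Gnmt: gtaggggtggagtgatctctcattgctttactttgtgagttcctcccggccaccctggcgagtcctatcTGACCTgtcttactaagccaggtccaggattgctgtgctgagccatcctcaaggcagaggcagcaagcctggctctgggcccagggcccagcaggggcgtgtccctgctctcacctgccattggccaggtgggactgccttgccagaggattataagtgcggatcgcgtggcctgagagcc

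Bhmt held the motif 3 times, at -234, -72 and -47 from the start, Tdo2 once, at -6, Gnmt once, at -181, and Tat and Gpt2 held no copy in this window. AGGTCA stood on either strand in the promoters of 14 of 35 members, or 40.0%, against 15.8% of 27025 genes in the table. Among members with a promoter entry it was present in 9 of 23 that fell on the oligonucleotide array and in 5 of 10 others measured there. GTTAAT, a part of the HNF1 site, stood in 11.4% of members and 7.49% of genes, and the E-box CACGTG in 5.71% and 6.86%. TGTTCT, a part of the glucocorticoid response element, stood in 8.57% and 18.2%. The full HNF1 site and the full glucocorticoid response element were not searched. TGACG, the core of the cAMP response element, stood in 11.4% and 19.8%. The D-box letters TTATGTAA and TTACGTAA, the full cAMP response element TGACGTCA and the C/EBP motif TTGCGCAA were in 0 of 35 member promoters and in 0.977%, 0.118%, 1.77% and 0.185% of genes. All letters were searched on both strands, TGACG also lies inside TGACGTCA, and a match is a string of letters and not a measured site.

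Aromatic amino acids were the first route compared. On the oligonucleotide array the lowest ratios were those of Tat and Tdo2, the first enzymes of the tyrosine and tryptophan pathways. Later steps fell there by smaller amounts or did not pass the test. Of 10 members measured on that array, 6 were lower and 1 higher, with a median log2 ratio of -0.20. The cDNA array did not measure Tat, and on it the later tyrosine step Hpd (mean -0.66) lay below Tdo2 (mean -0.34). Tat, tyrosine aminotransferase, is the rate-limiting enzyme of tyrosine breakdown and a textbook target of glucocorticoids. Its log2 ratio was -1.34, -1.42 and -0.93 in pools 1, 2 and 3. That is a mean of -1.23 ± 0.26 (SD, n = 3 pools), or 2.34-fold lower (limma adjusted p = 0.000713). All pools lay far below 0, pool 3 least.

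The next enzyme of the pathway, the dioxygenase Hpd, stood at -0.03, 0.05 and 0.08 on the oligonucleotide array, on both sides of 0 (mean 0.03, adjusted p = 0.566). Hgd, homogentisate dioxygenase, followed at -0.31, -0.35 and -0.19 (mean -0.28 ± 0.08, adjusted p = 0.00645). Fah, fumarylacetoacetase, whose loss causes tyrosinemia, lay at -0.27, -0.25 and -0.09 (mean -0.20 ± 0.10, adjusted p = 0.0234). Hgd and Fah were below 0 in every pool, but the call of Fah was lost without pool 1 (adjusted p = 0.136) and without pool 2 (0.101). On the oligonucleotide array, of 4 measured genes of the list of other tyrosine and phenylalanine genes, 2 were lower and none higher, with a median of -0.21. They were Qdpr, which recycles the tetrahydrobiopterin cofactor of phenylalanine hydroxylase, at -0.39 ± 0.15, and Gch1, which starts the synthesis of that cofactor, at -0.30 ± 0.08. Gch1 was of mixed sign on the cDNA array, at -0.24, 0.10 and 0.10.

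In the tryptophan route Tdo2, the dioxygenase that opens the indole ring and commits tryptophan to kynurenine, had log2 ratios of -0.93, -1.02 and -0.77. Its mean of -0.91 ± 0.13 was 1.88-fold lower (limma adjusted p = 4.42e-04), and no pool lay near 0. Kmo, kynurenine monooxygenase, was at -0.32, -0.24 and -0.47 (mean -0.34 ± 0.11, adjusted p = 0.00508). Acmsd, which turns an intermediate away from the synthesis of NAD, was at -0.14, -0.35 and -0.13 (mean -0.21 ± 0.13, adjusted p = 0.0313), and pool 2 stood apart from the others. That call was lost without pool 1 (adjusted p = 0.0740) and without pool 2 (0.104). Kynureninase, Kynu, was at 0.07, -0.20 and 0.16, and Haao, which makes quinolinate's precursor, had a mean of -0.04. Neither passed the test (adjusted p = 0.917 and 0.529). Of 8 other tryptophan genes on the oligonucleotide array, with a median of -0.01, 2 were lower and none higher. These were Kyat3, a kynurenine aminotransferase, at -0.69 ± 0.05, and Ido1, the tryptophan dioxygenase of other tissues and immune cells, at -0.23 ± 0.05. For this and every list of other pathway genes, the shares among all genes on that array were 21.4% lower and 22.0% higher.

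Ddc was the member that rose. It decarboxylates aromatic amino acids to amines such as dopamine and serotonin, and so leads to signalling molecules rather than to fuel. Its log2 ratios on the oligonucleotide array were 0.21, 0.17 and 0.35 (mean 0.24 ± 0.10, or 1.18-fold higher, limma adjusted p = 0.0129). All pools lay above 0, though without pool 1 the adjusted p was 0.0531.

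Sulfur amino acids had the lowest median of the routes on the oligonucleotide array, -0.58, with pool medians of -0.65, -0.65 and -0.46. On the cDNA array the 3 sulfur genes had a median of -0.95, with means of -0.95 for Mat1a and Gnmt but 0.01 for Bhmt. The median of the 2 measured genes of proline and ornithine breakdown was lower there, at -1.13. It lay between Prodh, with a mean of -2.33, and Oat, with a mean of 0.07. Of 6 sulfur members on the oligonucleotide array 5 fell and Cbs did not. The 5 that fell belong to the methionine cycle and to the last step of transsulfuration, which delivers cysteine. Routes were described by these counts and medians and not tested against each other.

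Mat1a, the liver enzyme that makes S-adenosylmethionine, stood at -0.63, -0.56 and -0.40 on the oligonucleotide array (mean -0.53 ± 0.12, 1.44-fold lower, limma adjusted p = 0.00156). Gnmt, which uses up surplus S-adenosylmethionine by methylating glycine, was at -0.74, -0.90 and -0.55 (mean -0.73 ± 0.18, 1.66-fold lower, adjusted p = 0.00125). Ahcy, which hydrolyses S-adenosylhomocysteine to homocysteine, was at -0.57, -0.61 and -0.45 (mean -0.54 ± 0.08, 1.45-fold lower, adjusted p = 9.96e-04). These enzymes act one after another, and each was below 0 in every pool. Bhmt, which returns homocysteine to methionine with betaine, was at -0.67, -0.69 and -0.97, the only gene of the route lowest in pool 3 among those that fell. Its mean was -0.78 ± 0.17, or 1.72-fold lower (adjusted p = 9.59e-04).

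Homocysteine can instead be turned to cysteine by Cbs and then Cth. Cth, cystathionine gamma-lyase, was at -0.70, -0.68 and -0.48 (mean -0.62 ± 0.12, 1.53-fold lower, limma adjusted p = 0.00107). Cbs, cystathionine beta-synthase, was at 0.03, 0.10 and -0.02, with a mean of 0.03 (adjusted p = 0.556). The pools of Cth and Cbs did not overlap. Of 12 other sulfur genes on the oligonucleotide array 6 were lower and none higher, with a median of -0.16. Those with the smallest p were Cdo1, the dioxygenase that starts cysteine breakdown (-0.52 ± 0.21), Bhmt2, a relative of Bhmt (-0.22 ± 0.03), and Sqor, which oxidises hydrogen sulfide (-0.25 ± 0.08).

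Branched-chain amino acids were the third route. They are broken down by a mitochondrial dehydrogenase complex, made in part of Bckdha, Bckdhb and Dbt, and leucine then passes through Ivd and the carboxylase subunits Mccc1 and Mccc2. Of 5 measured members 3 were lower and none higher, with a median of -0.24, and every pool of all 5 lay below 0. Mccc1 was at -0.33, -0.32 and -0.26 (mean -0.30 ± 0.04, limma adjusted p = 0.00325). Bckdha, a subunit of the decarboxylase, was at -0.40, -0.29 and -0.07 (mean -0.25 ± 0.17, adjusted p = 0.0274). Dbt, the transacylase core, was at -0.34, -0.08 and -0.31 (mean -0.24 ± 0.14, adjusted p = 0.0237).

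Bckdha and Dbt each had 1 pool near 0, pool 3 and pool 2. Their calls were lost without pool 1 (adjusted p = 0.138 for Bckdha and 0.127 for Dbt), that of Bckdha also without pool 2 (0.111) and that of Dbt also without pool 3 (0.0822). Bckdhb, the other decarboxylase subunit, had a mean of -0.11 (adjusted p = 0.106). Mccc2 stood at -0.11, -0.22 and -0.04 (mean -0.12, adjusted p = 0.0924) from 2 features. These disagreed, since as deposited 1 gave -0.30, -0.29 and -0.21 and the other 0.09, -0.14 and 0.15. Of 15 other branched-chain genes on the oligonucleotide array 9 were lower and 2 higher, with a median of -0.14. Ppm1k, the phosphatase that activates the dehydrogenase complex, rose (0.34 ± 0.08), while the acyl-CoA dehydrogenases Acadsb (-0.30 ± 0.09) and Acad8 (-0.28 ± 0.07) fell. On the cDNA array Ppm1k was also above 0 in every pool (mean 0.61), but so was Acad8, at 0.24, 0.44 and 0.25, and the pool mean of Acad8 over both array types was 0.02.

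The transaminases and the other routes make up the rest, with 13 of 17 measured members lower, none higher and a median of -0.28. All 4 measured transaminases fell. Gpt2, the mitochondrial alanine transaminase, had nearly the same log2 ratio in each pool, -0.80, -0.80 and -0.78 (mean -0.79 ± 0.01, 1.73-fold lower, limma adjusted p = 2.57e-04, the smallest of any member). Gpt, its cytosolic partner and the enzyme measured in blood as ALT, was at -0.39, -0.11 and -0.36 (mean -0.28 ± 0.15, adjusted p = 0.0168), a call lost without pool 1 (0.0917) and without pool 3 (0.0600). Gpt2 lay below Gpt in each pool, by -0.51 ± 0.16 on average (exact sign-flip permutation test, two-sided p = 0.25, the smallest that 3 pools allow).

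For the aspartate transaminases, mitochondrial Got2 was at -0.33, -0.26 and -0.51 (mean -0.37 ± 0.13, limma adjusted p = 0.00500). Cytosolic Got1 was at -0.42, -0.43 and -0.18 (mean -0.34 ± 0.14, adjusted p = 0.00780). Both were below 0 in every pool, and their difference had no single sign over the pools (Got2 minus Got1 -0.03 ± 0.27, exact p = 1). Sds and Sdsl, the remaining pair of related enzymes, were not measured.

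Proline and ornithine breakdown fell at all 3 measured steps. Prodh, the mitochondrial dehydrogenase that starts proline oxidation, was at -0.60, -0.45 and -0.41 on the oligonucleotide array (mean -0.49 ± 0.10, limma adjusted p = 0.00156). Aldh4a1, which completes the conversion to glutamate, was at -0.37, -0.34 and -0.32 (mean -0.35 ± 0.02, adjusted p = 0.00203). Oat, ornithine aminotransferase, an enzyme of hepatocytes around the central vein, was at -0.34, -0.52 and -0.05 (mean -0.30 ± 0.24, adjusted p = 0.0372). Pools agreed closely for Aldh4a1 and not for Oat, whose call was lost without pool 1 (adjusted p = 0.133) and without pool 2 (0.147).

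All 4 measured members of serine and glycine metabolism were lower. Dmgdh and Sardh are the mitochondrial dehydrogenases that oxidise dimethylglycine and sarcosine, products of choline breakdown, on the way to glycine. Dmgdh was at -0.55, -0.65 and -0.41 (mean -0.53 ± 0.12, limma adjusted p = 0.00157) and Sardh at -0.29, -0.17 and -0.13 (mean -0.20 ± 0.08, adjusted p = 0.0199). Agxt, which detoxifies glyoxylate with alanine, was at -0.34, -0.36 and -0.18 (mean -0.29 ± 0.10, adjusted p = 0.00683). Shmt1, the cytosolic serine hydroxymethyltransferase, was at -0.15, -0.34 and -0.11 (mean -0.20 ± 0.12, adjusted p = 0.0308). Dmgdh and Agxt kept their calls with any 1 pool left out. Sardh lost its call without pool 1 (adjusted p = 0.130) and pool 2 (0.0617), and Shmt1 without pool 1 (0.0855) and pool 2 (0.107). Among 13 other genes of serine, glycine and folate metabolism on the oligonucleotide array, 6 were lower and 2 higher, with a median of -0.07. Phgdh, which starts serine synthesis, rose (0.60 ± 0.13), whereas mitochondrial Shmt2 (-0.41 ± 0.04) and the threonine breakdown gene Gcat (-0.42 ± 0.05) fell. Gcat was also below 0 in every pool of the cDNA array (mean -0.72), whereas Shmt2 was at 0.24, 1.27 and -0.49 there, of mixed sign, and its pool mean over both array types was -0.04 (limma adjusted p = 0.905).

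Histidine and lysine breakdown had medians of -0.09 and -0.16 on the oligonucleotide array, and without pool 1 the histidine median was -0.05. Of 4 histidine genes Hal, histidine ammonia-lyase, the first step, fell (-0.19, -0.30 and -0.28, mean -0.26 ± 0.06, limma adjusted p = 0.00602). The later steps did not pass the test. Uroc1, urocanate hydratase, was at 0.03, 0.24 and 0.04 (mean 0.10, adjusted p = 0.196). Amdhd1, the next enzyme, had a mean of -0.02 (adjusted p = 0.692) and Ftcd, the last, -0.15 (adjusted p = 0.0688). In lysine breakdown Gcdh, glutaryl-CoA dehydrogenase, was at -0.24, -0.19 and -0.17 (mean -0.20 ± 0.04, adjusted p = 0.0119), with a call lost without pool 1 (0.0881). Aass, which starts that route, was at -0.22, -0.03 and -0.09 (mean -0.11, adjusted p = 0.122). In the list of other glutamine, proline, lysine and asparagine genes, 3 of 7 measured on the oligonucleotide array were higher and 1 lower, with a median of 0.08. The asparaginase Aspg (0.59 ± 0.02), the glutamine synthetase Glul (0.28 ± 0.13) and the asparagine synthetase Asns (0.23 ± 0.13) rose there. Glul was below 0 in every pool on the cDNA array, with a mean of -0.18, and its pool mean over both array types was 0.05 (limma adjusted p = 0.673).

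**Figure D2:**
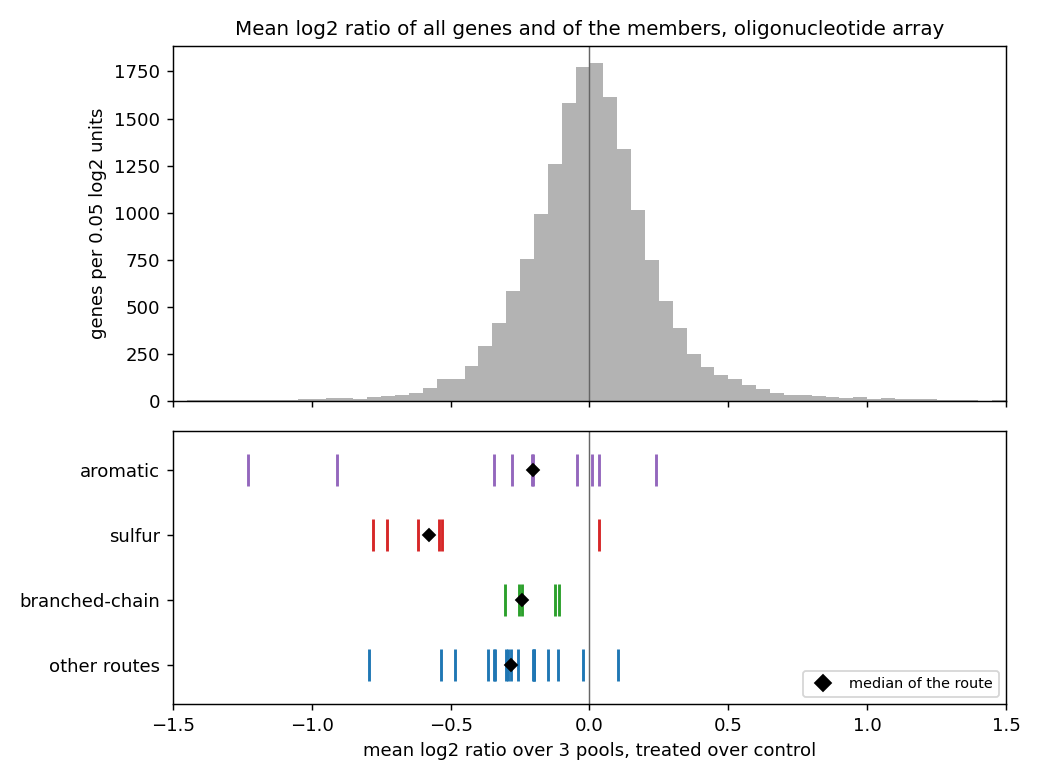
Top, number of genes per 0.05 log2 units of mean ratio on the oligonucleotide array, out of 16871, of which 49 lie outside the plotted range. Bottom, each vertical mark is the mean of 1 member on the same axis, by route, with a diamond at the route's median. The sulfur route, with its median at -0.58, lies farthest left, and Cbs stands apart from the rest of that route.

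Location and cofactor were compared in the same way. Of 15 measured mitochondrial members 12 were lower, with a median of -0.30, and of 23 others 15 were lower and 1 higher, with a median of -0.26. Of 12 measured members that use pyridoxal phosphate, the vitamin cofactor of transamination, 9 were lower and 1 higher, with a median of -0.30. Of 26 without it 18 were lower, with a median of -0.25.

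Regulators known to act on such genes also moved on the oligonucleotide array. Of 15 measured, 8 were lower and 2 higher, with a median of -0.20. Nfil3, a repressor of D-box promoters, was at 1.34, 1.15 and 1.16 (mean 1.22 ± 0.11, limma adjusted p = 2.24e-04). Dbp, an activator of the same promoters, was at -2.88, -2.82 and -2.20 (mean -2.63 ± 0.37, adjusted p = 2.60e-04). Cebpb, a liver transcription factor of fasting and the acute phase, was at -0.70, -1.10 and -0.98 (mean -0.93 ± 0.20, adjusted p = 8.64e-04). On the cDNA array Nfil3 was above 0 in every pool (mean 1.94). Dbp varied widely there, at -1.16, 0 and -2.47 (mean -1.21 ± 1.24). No link between these changes and the enzymes was tested.

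The cDNA array read the same pools and the same control pool. By limma 0 of 22 members were called, as were 0% of its 5011 genes in either direction (smallest adjusted p = 0.0984). At an unadjusted p under 0.05 stood 10 members, 8 of them lower and 2 higher, and 1518 genes. A plain one-sample test called 0 members and 1 gene after adjustment. The median SD over the pools was 0.32 for genes of the cDNA array and 0.08 for those of the oligonucleotide array. For the members alone it was 0.15 and 0.11. Since limma called no gene of the cDNA array, its values below are given as measurements with no call. Their median over the 22 members was -0.27, against 0.06 for all genes. In every pool 12 members lay below 0, or 54.5% against 26.3% of genes, 4 lay above 0, or 18.2% against 31.1%, and 6 had both signs.

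Prodh had the lowest values on the cDNA array, -3.07, -2.39 and -1.54 (mean -2.33 ± 0.77, 5.04-fold). Bckdha followed at -1.81, -1.06 and -0.86 (mean -1.24 ± 0.50), and Got1 at -1.42, -0.77 and -0.89 (mean -1.03 ± 0.35). In these 3 genes pool 1 was lowest, and the cDNA ratios of every pool lay below all oligonucleotide ratios of the same gene. Mat1a (mean -0.95 ± 0.21) and Gnmt (-0.95 ± 0.14) came next, so the sulfur genes that use and make S-adenosylmethionine were below 0 on all 6 arrays. Shmt1 (-0.92 ± 0.20), Gpt (-0.39 ± 0.21), Fah (-0.35 ± 0.09), Tdo2 (-0.34 ± 0.09) and Dmgdh (-0.20 ± 0.13) were also below 0 in every pool. Ivd, which the oligonucleotide array did not measure, was at -0.50, -0.34 and -0.62 (mean -0.49 ± 0.14).

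Other members lay above 0 on the cDNA array or stood apart from their oligonucleotide ratios. Ddc, which rose on the oligonucleotide array, was at 0.65, 0.92 and 0.15 (mean 0.57 ± 0.39), above 0 on all 6 arrays. Dbt was at 0.53, 0.57 and 0.44 (mean 0.51 ± 0.07), above 0 in each pool where the oligonucleotide array put it below. Hpd was at -0.84, -0.58 and -0.56 (mean -0.66 ± 0.16), although its oligonucleotide ratios lay around 0. Uroc1 was at 0.49, 0.50 and 0.31 (mean 0.43 ± 0.11) and Kynu at 0.64, 0.30 and 0.21 (mean 0.38 ± 0.23). These 2 had no call on either array type.

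Members of mixed sign on the cDNA array whose mean lay on the other side of 0 from the oligonucleotide array were Bhmt, Oat, Hgd, Mccc2 and Aass. Bhmt was at 0.06, 0.29 and -0.33, which sets it apart from the oligonucleotide array, where it was among the lowest, though pool 3 was lowest on both. Oat was at 0.09, -0.02 and 0.15, and Hgd at -0.08, -0.01 and 0.14. Mccc2 was at -0.05, 0.12 and 0.04, and Aass at -0.02, 0.23 and -0.12. Hal, the last member of mixed sign, had a mean of -0.02. The pools of each of these 6 genes lay on both sides of 0.

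**Figure D3:**
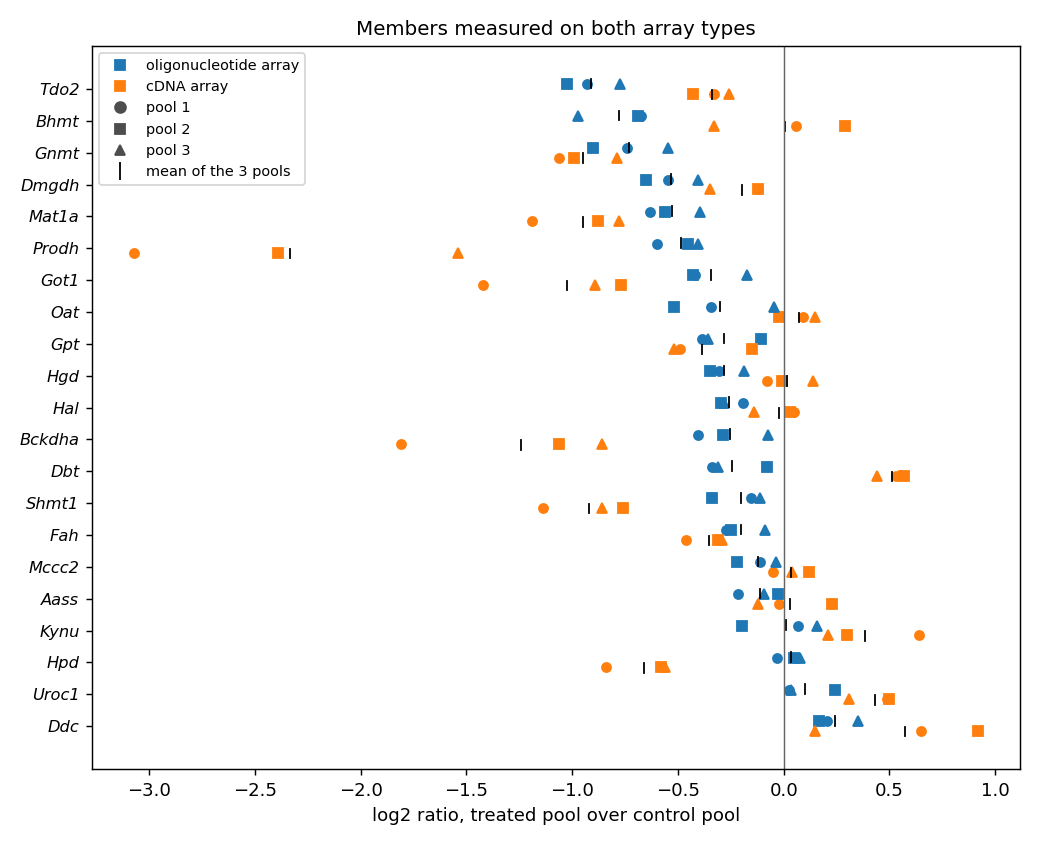
Log2 ratio of treated over control (horizontal axis) for the 21 members measured on both array types, with the oligonucleotide array in blue and the cDNA array in orange. Markers are the 3 pools and bars their means. Prodh reaches -3.07 on the cDNA array, and Dbt lies on opposite sides of 0 on the array types.

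When the 2 arrays of each pool were averaged, 5 of 21 members were lower and none higher (limma, 4702 genes on both array types, of which 2.64% were lower and 2.47% higher). Prodh had pool means of -1.83, -1.42 and -0.97 (mean -1.41 ± 0.43, adjusted p = 0.0435). Gnmt stood at -0.90, -0.95 and -0.67 (mean -0.84 ± 0.15, adjusted p = 0.0394) and Mat1a at -0.91, -0.72 and -0.59 (mean -0.74 ± 0.16, adjusted p = 0.0435). Tdo2 followed at -0.63, -0.73 and -0.52 (mean -0.62 ± 0.10, adjusted p = 0.0435) and Shmt1 at -0.65, -0.55 and -0.49 (mean -0.56 ± 0.08, adjusted p = 0.0450). No call of these 5 was far from the threshold. Without pool 1 or without pool 2 none of the 21 members was called lower, and without pool 3 the count was 3. Got1 (mean -0.68, adjusted p = 0.0534) and Dmgdh (-0.37, adjusted p = 0.0634) lay just outside the threshold.

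The array types gave different ratios for 5 of 21 members, where 11.4% of the 4702 genes differed (limma, oligonucleotide minus cDNA, adjusted p under 0.05). The difference was 1.85 for Prodh (adjusted p = 0.0410), 0.72 for Shmt1 (0.0398) and 0.69 for Hpd (0.0300), whose cDNA ratios were the lower. It was -0.76 for Dbt (0.0256) and -0.57 for Tdo2 (0.0405), whose oligonucleotide ratios were the lower. With the pool as a replicate block, since each pool's RNA was split over both array types, 0 of these 5 differences were called (limma adjusted p from 0.128 to 0.138), and each had an unadjusted p under 0.05. Without pool 1 or without pool 2 the unblocked count was also 0. The probes and clones are not identified by sequence in the sources used here, and the cause of these differences was not tested.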

How the data were processed

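Liver RNA was measured on 6 Agilent 2-colour arrays, 3 with oligonucleotide probes and 3 with cDNA clones. Per the labels' protocols, 10 ug of RNA was labelled directly for the cDNA array and 0.5 ug for the oligonucleotide array. The deposited tables give a log ratio for each feature on each array, as the authors computed it, here taken as a log2 ratio. The sources used here do not give its log base, background correction, normalization or filters. A natural log was not excluded, and folds would then be larger. The direction follows the titles and dyes in the labels.

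Values of 0 were treated as missing, and the median of all remaining features was subtracted from each array. Features naming 1 gene in the platform annotation (18658 of 22575 oligonucleotide and 7410 of 13482 cDNA features) were averaged per gene where all 3 arrays of a type had values. No member feature was at 0 or named several genes. RefSeq names (GRCm38.p6) changed no symbol. Each array type was tested with limma 3.58.1 in R 4.3.3 (lmFit and eBayes, mean of 3 pools against 0, Benjamini-Hochberg over all genes, threshold 0.05), and so were the pool means of both array types. The script was tested on simulated data. Nothing says which mice made up which pool. The control pool is 1 sample, so its spread is left out, and without dye exchange a dye effect and treatment cannot be told apart. The number of arrays limits the precision.

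Pool numbers pair the array types by design, since each RNA was split. The deviations of a pool's arrays from their type's means correlated across genes at 0.06, 0.07 and 0.07. The members and all gene lists were chosen with earlier results of these data known. All members are accounted for by route. Pool values are given for members called on the oligonucleotide array or of opposite mean sign on the cDNA array, and up to 3 called genes with the smallest p for each list of other pathway genes and regulators. Alternatives were the centring, between-array scaling, treatment of 0, missing values, separate features, prior, threshold, fold, pool block and leaving out each pool. Python 3.11.15, pandas 2.3.3 and matplotlib 3.10.9 made tables and plots.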

Additional observations from a re-analysis of the deposited data

How the results depend on the processing

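No called member changed direction under any alternative run. The median of the members stayed within the spread between pools on both array types. On the oligonucleotide array, 27 members were lower. That count fell to 18 at an adjusted p of 0.01, to 6 with a fold of at least 1.5 and to 1, Gpt2, in the plain one-sample test, which lacks limma's shared prior. Leaving out 1 pool gave 18 to 25, and 18 of the 27 were called with any 1 pool left out. The 1 higher member, Ddc, was called in 0 cases at 0.01, at 1.5-fold, without the prior and without pool 1, so leaving out 1 pool gave 0 to 1. Centring, scaling, the treatment of 0, separate features and a robust prior changed no member's call there.

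For the pool means, the 5 lower members became 0 at an adjusted p of 0.01, without the prior, with values of 0 kept and with values required on 2 of 3 arrays, 8 with scale normalization between arrays, and 0 to 3 with 1 pool left out. The 5 members differing between array types became 0 with the replicate block that the paired design implies and 0 to 5 with 1 pool left out. The cause of these changes was not tested. The median of the proline and ornithine route was -0.43 without pool 3 that of the tryptophan route -0.13 without pool 2 and that of the histidine route -0.05 without pool 1. With 3 pools, small differences such as those of the branched-chain subunits are near the limit of what this design resolves.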

Other observations

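Enzymes of amino acid breakdown are known to differ between hepatocytes near the portal vein and those near the central vein. Of 10 measured genes of a periportal list, which includes the member Hal, 8 were lower on the oligonucleotide array and none higher. The median log2 ratio was -0.47, with pool medians of -0.57, -0.45 and -0.31. These 8 include the urea cycle genes Ass1, Arg1, Asl and Cps1 described below, so a periportal and a urea cycle decrease are not separate here. Cyp2f2 and Cdh1 did not pass the test (limma adjusted p = 0.190 and 0.877). Of 13 measured genes of a pericentral list, which includes the member Oat, 4 were lower and 2 higher. Their median was 0.04, with pool medians of 0.00, -0.06 and 0.07. By the same rule 21.4% of all genes on that array were lower and 22.0% higher. On the cDNA array, where limma called no gene, 5 periportal genes had a median of -0.34 and 7 pericentral genes one of -0.07, the latter with means from -1.94 to 1.56. The 2 lists were not tested against each other or against other genes.

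Genes of the urea cycle, which takes up the nitrogen that these enzymes release, were singled out of the periportal list after their values were seen. The argininosuccinate synthase Ass1 was at -0.73, -0.74 and -0.64, a mean of -0.70 ± 0.05 (limma adjusted p = 4.15e-04). Arginase, Arg1, had a mean of -0.70 ± 0.03 (adjusted p = 3.80e-04). Cps1, the entry step, was at -0.74, -0.61 and -0.30 (mean -0.55 ± 0.22, adjusted p = 0.00459), and Asl, argininosuccinate lyase, had a mean of -0.55 ± 0.07 (adjusted p = 8.47e-04). Each was below 0 in all 3 pools.

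Other markers of cells a liver sample can hold were also measured on the oligonucleotide array. All 7 neutrophil markers, 6 of 8 lymphocyte markers, 6 of 7 stellate cell markers and 2 of 2 erythroid markers were higher. So was 1 of 4 cholangiocyte markers, near the share among all genes there, which was 22.0% higher and 21.4% lower. Of 6 endothelial markers 1 was lower and none higher. On the cDNA array, where no gene was called, the medians were 0.997 for 4 neutrophil markers, 0.54 for 6 stellate cell markers, 0.02 for 2 endothelial and 0.17 for 2 cholangiocyte markers, but -0.53 for 6 lymphocyte markers. The erythroid marker Alas2 was also below 0 there, at -0.99, -0.54 and -0.38. Their part in the members' decreases was not tested.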
